A study of Mus musculus with 2 samples.

Results

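Border-associated macrophages were examined in single-cell RNA-seq data from the spinal cords of mice at postnatal day 4. A cell was taken as one when it had a unique molecular identifier (UMI, the tag of 1 captured RNA molecule) in at least 3 of the 7 marker genes Mrc1, Cd163, Lyve1, F13a1, Cbr2, Pf4 and Ms4a7. Such a cell could have a UMI in at most 2 of the 5 microglial genes P2ry12, Tmem119, Siglech, Gpr34 and Crybb1, and in at most 1 of the 4 genes Pdgfra, Aqp4, Cldn5 and Col1a2, which mark other cells of the cord. This rule found 119 of 17043 kept cells, 42 from the library labelled SMA and 77 from that labelled Con. The rule rests on the same counts that are described here, so the levels of these 16 genes are a description of the choice.

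The library labelled SMA came from mice of the genotype mSmn-/-, hSMN22tg/0, the severe Taiwanese model of spinal muscular atrophy, a disease caused by loss of the SMN protein. The library labelled Con came from mice of the genotype mSmn+/-, hSMN22tg/0, which kept 1 intact mouse Smn allele. All mice were of the FVB strain and carried the human SMN2 transgene, and the deletion was present in every cell of the body. Per the study's methods, the cords of several littermates had been pooled into each library. Each group was 1 library, which allowed no test between them, and every interval below is a 95% interval that covers counting error only. The genotype cannot be told apart from the pool of animals, the dissociation or the library. Smn1 had 11 UMIs in the macrophages labelled SMA, at 29.9 CPM (counts scaled to a total of 1000000), and 20 UMIs in those labelled Con, at 35.7 CPM, with a log2 ratio of −0.25 (−1.46 to 0.88). Counts from the 3′ end of a gene do not separate its deleted part from the rest, so this value checks nothing about the labels.

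Border-associated macrophages are the resident macrophages of the central nervous system that lie outside its parenchyma, in the meninges, the perivascular spaces and the choroid plexus. Most are seeded before birth, and they are known for taking up material from the fluid and blood around them through scavenger and lectin receptors, for the mannose receptor Mrc1 and the hyaluronan receptor Lyve1, and for secreting chemokines. Microglia, the macrophages of the parenchyma, share with them the receptor Csf1r, complement C1q and Fc receptor signalling, but have their own set of genes such as P2ry12 and Sall1. Whole spinal cord was dissociated here, and the border from which a cell came is not recorded.

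Depth differed among the cells. The macrophages labelled SMA had a median of 8206 UMIs (1574 to 20232) and 2415 genes, and those labelled Con had a median of 6272 UMIs (584 to 24835) and 2159 genes. A total of 8163 barcodes were listed in both libraries, and the SMA entries among them had been left out. In the library labelled Con, 48 of the 77 macrophages had a barcode that was also listed for SMA, with a median of 9526 UMIs, and the SMA entries under the same barcodes held a median of 17.7% of as many UMIs (14.8% to 18.8%). The other 29 had a median of 1980 UMIs (584 to 3854) and 895 genes, and none reached 5000 UMIs, whereas all 43 macrophages labelled Con with at least 5000 UMIs were among the 48. Of 86 SMA barcodes that met the marker rule, 44 were shared and had been left out. Values without the 29 shallow cells labelled Con are given below beside the results that they move most.

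**Figure D1:**
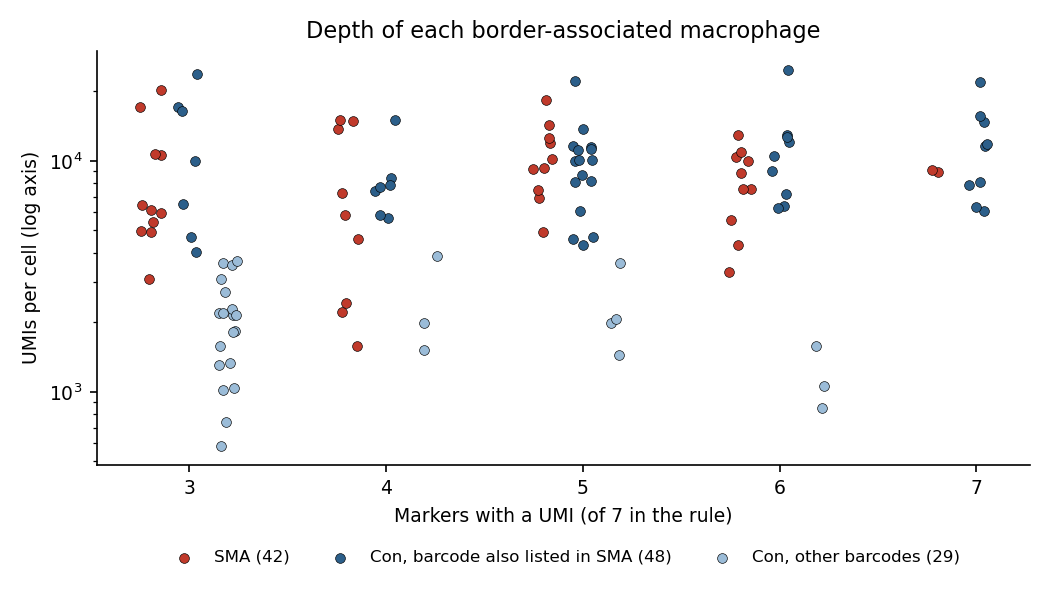
Each point is 1 border-associated macrophage, placed by the number of the 7 rule markers with a UMI (horizontal axis, with a small sideways shift) and its total UMIs on a log axis (vertical). The 29 Con cells whose barcode is not listed for SMA all lie below 4000 UMIs, and 19 of them have exactly 3 markers.

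The label was checked against 18 macrophage genes that the rule did not use. Macrophages labelled SMA had a UMI in a median of 14 of them (8 to 17), and those labelled Con in a median of 13 (0 to 18). At least 9 of the 18 genes were found in 41 of 42 SMA cells, in 47 of 48 Con cells whose barcode is shared and in 14 of the 29 others. Csf1r, the receptor on which macrophage survival depends, had UMIs in 41 and 59 cells. C1qb, a chain of the complement component C1q, had UMIs in 42 of 42 cells labelled SMA and in 67 of 77 labelled Con, against 16.6% and 11.9% of oligodendrocyte precursor cells (OPC), which should lack it. For Clec10a, a galactose-binding lectin of macrophages, the OPC shares were 0.231% and 0.224%, and the macrophages with a UMI were 24 and 41. Most cells thus carried macrophage genes beyond those of the rule. The 29 others labelled Con were weaker by this check, with a median of 8 of the 18 genes and as few as 3. Further exceptions follow.

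One cell labelled Con did not carry the macrophage genes. It had 23653 UMIs and a UMI in all 11 of a list of platelet genes written after its values were seen, but in 0 of the 18 macrophage genes. Pf4 and F13a1, which let it meet the rule together with Lyve1, are made by platelets and their precursors as well. Erythroid genes were uneven too: haemoglobin took 2.51% of all UMIs in the macrophages labelled SMA and 8.71% in those labelled Con, and 1 and 8 cells had 5% or more. The haemoglobin sum was 25072 and 87069 CPM, while it was alike in microglia at 26982 and 26602 CPM.

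Markers of T cells, mast cells and vessels were few. T cell genes had 0 and 1 UMIs, mast cell genes 0 and 1, and endothelial genes 0 and 12. Fibroblast genes had 0 and 60 UMIs, with Dcn and Lum at 0 in both libraries. Most of the 60 were in 1 cell of 5637 UMIs, at 92.2 per 10000 UMIs, which also had 16 UMIs of Col1a2. B cell genes had 13 and 18 UMIs in 8 and 14 macrophages, at 35.4 and 32.1 CPM, against 44.9 and 58.4 CPM in microglia and 1.93 and 2.06 in OPC, with Ms4a1 at 0 in both libraries. The neutrophil genes had 20 and 23 UMIs, with a highest value of 3.10 per 10000 UMIs in a cell labelled SMA and 106 in a cell labelled Con. Astrocyte genes summed to 299 and 333 CPM, against 1287 and 1379 CPM in OPC, and oligodendrocyte genes to 348 and 729 CPM, against 1408 and 2990. Neuronal genes had 80 and 12 UMIs in 5 and 7 macrophages, at 218 and 21.4 CPM. Most of the 80 were in 1 cell labelled SMA of 10643 UMIs, at 70.5 per 10000 UMIs. The higher value in the library labelled SMA thus rests on that cell. The part of these foreign transcripts in the results below was not tested.

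The 7 marker genes varied widely from cell to cell. Cells with 3, 4, 5, 6 and 7 markers numbered 11, 9, 10, 10 and 2 among SMA cells and 26, 10, 20, 12 and 9 among Con cells. Pf4, a platelet-factor chemokine that these macrophages also make, had UMIs in 41 of 42 and 77 of 77 cells, with 9521 and 6226 CPM. Mrc1 was found in 41 and 62 cells at 805 and 975 CPM. Lyve1 was found in 29 and 47 cells at 996 and 957 CPM, and the share of OPC with a Lyve1 UMI was 0.154% and 0.411%. F13a1, a transglutaminase subunit, was found in 33 and 52 cells at 901 and 494 CPM. The haemoglobin scavenger Cd163 was found in 14 and 20 cells, the carbonyl reductase Cbr2 in 17 and 39, and the membrane protein Ms4a7 in 18 and 56, at 125 and 403 CPM.

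Near the threshold the cells were more mixed. Just outside it, 5 cells labelled SMA and 71 labelled Con had a UMI in exactly 2 of the 7 markers, with medians of 10 and 8 of the 18 macrophage genes. Just inside it, the 11 and 26 cells with 3 markers had medians of 12 and 8.5. Cx3cr1, the fractalkine receptor of microglia, was at 4.19 and 2.81 UMIs per 10000 in the cells with 3 markers and at 0.148 and 2.15 in those with 4. Another 9 cells labelled SMA and 13 labelled Con had enough markers but were over the limit for microglial genes.

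Border-associated macrophages made up 0.619% (0.446 to 0.836) of all kept SMA cells and 0.751% (0.593 to 0.937) of all kept Con cells. The log2 ratio of these shares was −0.28 (−0.82 to 0.26), so the difference lay within counting error. Of macrophages and microglia together they were 42 of 1151 cells labelled SMA, 3.65% (2.64 to 4.90), and 77 of 1032 labelled Con, 7.46% (5.93 to 9.24). The log2 ratio of the latter was −1.03 (−1.56 to −0.50). With only the 48 Con macrophages of shared barcode, counted over macrophages and microglia with a shared barcode, the share labelled Con was 5.57% (4.14 to 7.32) and the ratio −0.61 (−1.20 to −0.03). Among cells of at least 5000 UMIs it was −0.64, and its interval of −1.29 to 0.004 reached 0. Microglia numbered 1109 and 955, so this share moves with their number too.

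The share of cycling cells did not differ between the libraries beyond counting error. A UMI in at least 3 of 10 proliferation genes was found in 6 of 42 macrophages labelled SMA (14.3%, 5.43 to 28.5) and in 12 of 77 labelled Con (15.6%, 8.32 to 25.6). After thinning each cell to 2000 UMIs, with 1 and 16 shallower cells left out, the shares were 9.76% (2.72 to 23.1) and 11.5% (4.74 to 22.2). Microglia thinned to the same depth stood at 8.21% and 5.15%, and OPC at 15.7% and 13.7%. The intervals of the macrophages held the microglial share of the same library, and phase was not read from these genes alone.

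The macrophages were then set against microglia of the same library, over 8433 genes with at least 50 UMIs in both libraries. At 2-fold or more, 235 genes were higher in the macrophages in both libraries (2.79%) and 562 were lower (6.66%). As the cells had been chosen on the same counts, this is a description of them and no test. The genes with the highest ratios were, first, receptors for the uptake of dying cells and sugars. Timd4, a receptor for phosphatidylserine on dying cells, was at 199 CPM in macrophages labelled SMA against 0.125 in microglia, and at 144 against 0.150 in the library labelled Con. It was found in 17 and 16 macrophages and had 0 UMIs in the 14 and 30 monocytes of the libraries. Clec10a was at 367 and 282 CPM against 0.501 and 0.150 in microglia. Clec4n, a lectin receptor for fungal mannans, was at 269 and 185 against 1.38 and 1.80, with 111 and 157 CPM in monocytes. Folr2, a folate receptor of resident macrophages, stood at 454 and 378 CPM in the macrophages and 3.51 and 5.39 in microglia. These values put each receptor far above microglia in both libraries.

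Secreted proteins made up much of the rest of the highest genes. Fcna, a ficolin of the lectin pathway of complement, was at 2065 and 1225 CPM in the macrophages and 2.76 and 2.25 in microglia. Cfp, or properdin, which stabilises the alternative complement convertase, was at 618 and 358 CPM against 1.38 and 1.05. Ccl24, an eosinophil-attracting chemokine, was at 786 and 451 CPM against 14.0 and 7.79. The growth factor Bmp2 was at 114 and 198 CPM against 1.88 and 0.898, with no UMI in monocytes. The galectin Lgals3 was among these 12 genes too, but it was higher still in monocytes, at 2367 and 1759 CPM against 248 and 241 CPM in the macrophages. Of its 135 UMIs labelled Con, 40 were in the 48 cells of shared barcode, at 79.6 CPM. Wfdc17, a secreted WAP-domain protein of activated macrophages, was at 3712 and 822 CPM against 3.76 and 2.85. The interferon-inducible Ifi207 and the inhibitory receptor Lilr4b completed the highest 12. Lilr4b was not particular to the macrophages, at 106 and 78.4 CPM against 97.5 and 197 in monocytes.

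On the other side stood genes of the microglial programme. Sall1, a transcription factor that sets microglial identity, was at 13.6 and 7.13 CPM in the macrophages against 184 and 175 in microglia. Sparc, a matrix glycoprotein, was at 242 and 269 CPM against 3250 and 4101. Olfml3, Nav3, Ecscr, Lag3, Cd34, Csf1, Pacsin1, Gm2629 and Gm13889 were lower as well, the last of them by −3.88 and −4.01 on the log2 scale. Not every microglial gene was so low. Fcrls was at 231 and 307 CPM, −1.47 (−1.79 to −1.16) and −0.98 (−1.21 to −0.76) against microglia, and Cx3cr1 at 161 and 219 CPM, −2.89 and −2.37.

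**Figure D2:**
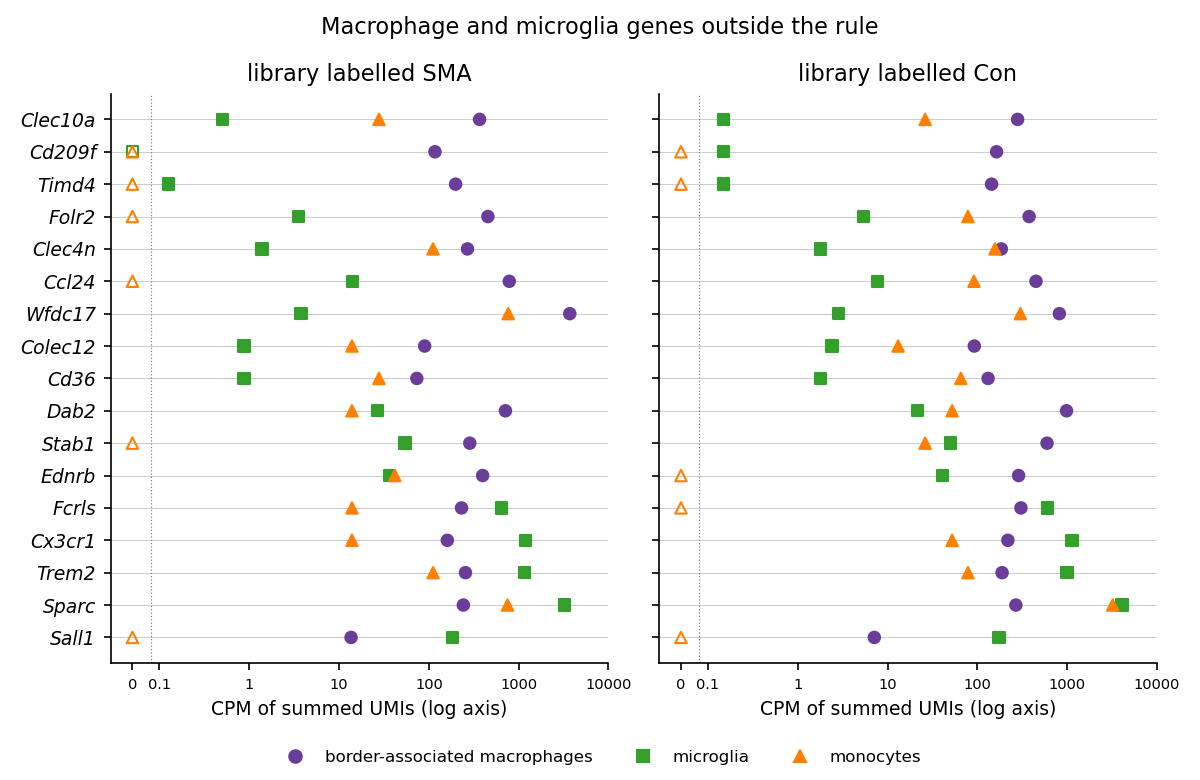
CPM of summed UMIs on a log axis for 12 macrophage genes and 5 microglial genes outside the rule, in macrophages (circles), microglia (squares) and monocytes (triangles) of each library, with open symbols at 0 for no UMI. The 12 upper genes lie to the right of microglia in both libraries, by the least for Stab1 in the library labelled SMA (286 against 54.5 CPM), and the 5 lower genes lie to the left.

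Macrophages with and without a Lyve1 UMI were then compared. To leave out shallow cells, those with at least 5000 UMIs were taken, without the platelet-gene cell and the Fn1-rich cells described below, a choice made after the values were seen. Of these, 19 labelled SMA and 32 labelled Con had a Lyve1 UMI, and 6 and 6 had none. Depth was not matched beyond this minimum, with medians of 9227 and 6011.5 UMIs labelled SMA and 9532.5 and 10053 labelled Con. The groups without Lyve1 held cells with 10 or more Spp1 UMIs, described below, 4 of the 6 labelled SMA and 1 of the 6 labelled Con. Over 1456 genes with at least 20 UMIs in each library, 5.36% were 2-fold or more higher in the Lyve1 cells of both libraries and 1.1% were lower. Among 138 genes of the lists used here with at least 20 UMIs in each library, 23 were higher by this measure (16.7%) and 4 were lower. The lists had been written with earlier results known. The higher ones held Folr2, at 488 against 24.7 CPM in the library labelled SMA and 432 against 64.6 in that labelled Con. They also held the lectin Cd209f, whose 43 UMIs labelled SMA were all in Lyve1 cells, as were 91 of 92 UMIs labelled Con in the cells compared. The TAM-receptor ligand Gas6 was at 547 against 98.9 CPM and 608 against 129. The chemokine Ccl7 was at 5998 against 198 CPM and 3494 against 533, and the interferon-inducible membrane protein Ifitm3 at 943 against 198 and 664 against 64.6.

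The 4 lower genes included Cx3cr1, the transcriptional regulator Id2 and the secreted phosphoprotein Spp1. Cx3cr1 was at 80.4 CPM in the Lyve1 cells and 741 in the others of the library labelled SMA, and at 220 against 484 in that labelled Con. Spp1 had 0 UMIs in the 19 Lyve1 cells labelled SMA and 342 in the 6 others. In all, 8 macrophages had 10 or more Spp1 UMIs, 4 in each library, and each of them had exactly 3 of the 7 markers, no Lyve1 UMI and at most 6 Pf4 UMIs. They stood at the microglial edge of the rule, and asking for 4 markers removes them. Without them, a comparison also added after the values were seen, the cells lacking Lyve1 numbered 2 and 5, and 18 of 129 list genes and 6.79% of 1282 genes were 2-fold or more higher with Lyve1 in both libraries, and 0.78% were lower. Folr2 then was at 488 against 85.2 CPM labelled SMA, from 91 and 1 UMIs, and Ccl7 at 5998 against 682. Ifitm3, at 943 against 597, was within 2-fold there. In the library labelled SMA, Cx3cr1 then had 15 UMIs against 1, at 80.4 against 85.2 CPM, and Id2 10 against 0, too few to compare. In that labelled Con, Cx3cr1 was at 220 against 433 CPM and Id2 at 76.4 against 180. C1qa was at 4058 against 4276 CPM labelled SMA and 2851 against 2632 labelled Con, or at 4058 against 1704 and 2851 against 2200 without the cells rich in Spp1. Cd209f marked a small group: 5 of 42 and 10 of 77 macrophages had a UMI, with 1 to 31 and 1 to 20 UMIs each, and 5 and 9 of these had Lyve1 too.

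MHC class II, which marks another state of border macrophages in the adult, was found in few cells. A UMI of H2-Aa, H2-Ab1 or H2-Eb1 was present in 4 of 77 macrophages labelled Con and in 0 of 42 labelled SMA. Of these 4 cells, 1 was among the 48 of shared barcode and 3 were among the 29 shallow ones. The count of 0 allows up to 7.14% of cells with a UMI and sets no limit on cells that express the genes. A cell labelled Con of 584 UMIs in all held 8 of H2-Aa, 7 of H2-Ab1 and 15 of H2-Eb1, with 17 of Cd74, and the other 3 cells had at most 4 UMIs of any of the 3 genes. The share of macrophages labelled Con with a UMI was 2.60% for H2-Aa, 2.60% for H2-Ab1 and 3.90% for H2-Eb1, against 0.897%, 5.87% and 1.35% of OPC. Cd74, the invariant chain, was found in 28 and 43 macrophages at 250 and 214 CPM, against 276 and 213 CPM in microglia.

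A set of 11 macrophages had at least 15 Fn1 UMIs each, 7 labelled SMA and 4 labelled Con, and is called Fn1-rich here; the limit was chosen after the values were seen. Fn1 encodes fibronectin and lies at chr1:71585520-71653200 on the minus strand of GRCm38. These cells held 363 of 392 Fn1 UMIs labelled SMA and 146 of 161 labelled Con, with 18 to 97 and 18 to 73 UMIs a cell. They were deep, with medians of 14816 and 14379 UMIs. Lysozyme (Lyz2) was at 18977 CPM in the Fn1-rich cells and 2825 in the other macrophages labelled SMA, and at 24819 against 2922 in those labelled Con. Timd4 was at 557 against 57.0 CPM and 979 against 55.2. The adhesion molecule Icam2 had 46 of 47 UMIs labelled SMA and 35 of 35 labelled Con in these cells. The protease Prtn3 had all of its 50 and 19 UMIs there, the lubricating proteoglycan Prg4 all of its 16 and 20, and the platelet-adhesion receptor Selp all of its 16 and 9. Marco, a scavenger receptor for bacteria, had 27 of 29 and 34 of 35.

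Several genes of the other macrophages were lower in these cells, and some were not. Mrc1 was at 144 CPM in the Fn1-rich cells and 1067 in the others labelled SMA, and at 148 against 1063 in those labelled Con. Ccl12, a monocyte-attracting chemokine, was at 38.4 against 2544 CPM and 18.5 against 1395. Fcrls and Cx3cr1 had no UMI in any of the 11 cells, and Cd209f had none either. Folr2 was higher, at 595 against 399 CPM labelled SMA and 721 against 341 labelled Con. Pf4 was at 17201 against 6483 and 5747 against 6278 CPM, and Lyve1 at 557 against 1170 and 758 against 979. C1qa was not low, at 5615 against 4242 and 7133 against 2784 CPM. Gata6, a factor of macrophages of the body cavities, had 0 UMIs labelled SMA and 1 labelled Con in these cells, so no more than their leading genes is used to name them.

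The Fn1-rich cells differed between the libraries in some genes. S100a4, a calcium-binding protein, had 12 to 34 UMIs in each of the 7 cells labelled SMA and 2 to 9 in each of the 4 labelled Con. Of all macrophages, 7 labelled SMA and 0 labelled Con had 10 or more S100a4 UMIs, and the former were the 7 Fn1-rich ones. The chemokine Ccl6 had 50 to 157 UMIs a cell against 6 to 46. Pf4, with 85 to 444 and 35 to 126 UMIs, Lyz2, with 53 to 449 and 202 to 502, and Timd4, with 3 to 12 and 7 to 18, overlapped between the libraries. Cells of 1 library share its pool, so these ranges compare the libraries only.

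**Figure D3:**
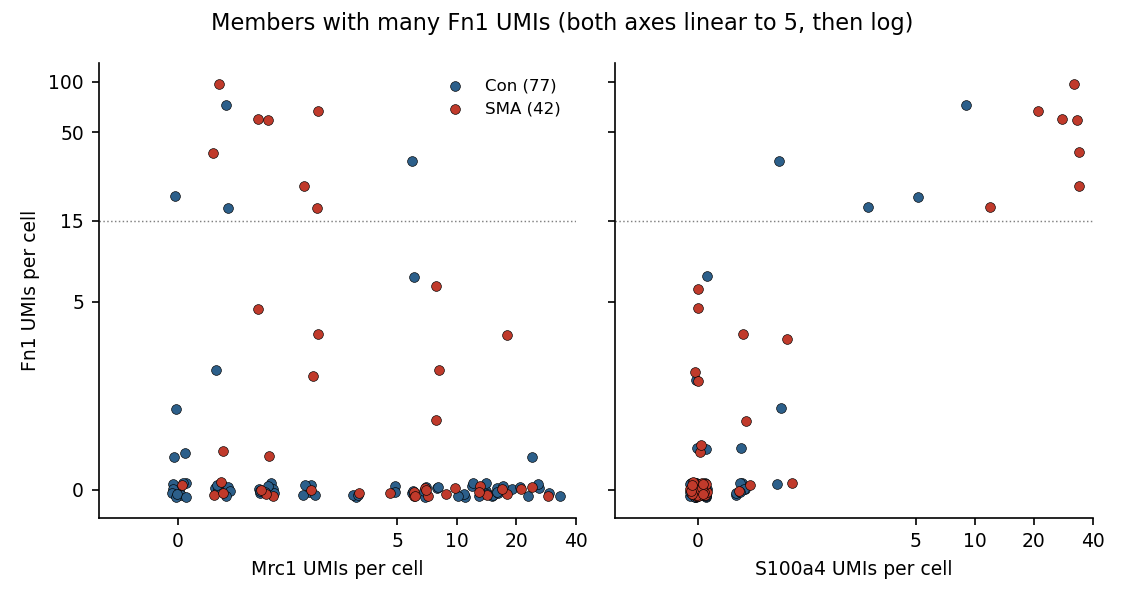
Fn1 UMIs per macrophage against Mrc1 (left) and S100a4 (right), 1 point a cell with a small shift, both axes linear up to 5 UMIs and logarithmic above. The 11 cells above the dotted line at 15 Fn1 UMIs have at most 6 Mrc1 UMIs, and the 7 labelled SMA have more S100a4 UMIs than any cell labelled Con.

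Levels in all macrophages were then compared between the libraries. Of 2207 genes with at least 50 UMIs in both libraries together, 85 were 2-fold or more higher in the library labelled SMA (3.85%) and 98 were 2-fold or more lower (4.44%), 8.29% in all. The median gene stood at 0.06 on the log2 scale. Without the platelet-gene cell the lower genes numbered 50, and without the Fn1-rich cells the higher genes numbered 47. Positions below are those of GENCODE M21 on GRCm38.

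Among the 12 genes with the highest ratio, 5 other than Fn1 kept a log2 ratio above 1.8 without the Fn1-rich cells. Lrg1, a secreted leucine-rich glycoprotein of the TGF-beta pathway (chr17:56119678-56122001), had 132 UMIs labelled SMA and 16 labelled Con. It was found in 11 of 42 and 6 of 77 macrophages, and its CPM of 359 and 28.5 gave a log2 ratio of 3.65 (2.90 to 4.50), and of 4.53 without the Fn1-rich cells, where 24 and 2 UMIs remained. Lrg1 was found in 1 of 1109 and 1 of 955 microglia. Emp1, an epithelial membrane protein, was at 212 and 32.1 CPM, 2.73 (1.97 to 3.55). The cytokine Il1a (chr2:129299610-129309972) was at 444 and 125 CPM in 14 and 12 cells, 1.83 (1.42 to 2.26). Plaur, the urokinase receptor, was at 245 and 58.8 CPM, 2.06 (1.47 to 2.68), and Fn1 at 1067 and 287 CPM, 1.89 (1.63 to 2.17). Outside the Fn1-rich cells, which were chosen on Fn1 itself, 29 and 15 Fn1 UMIs were left, and no ratio is read from them.

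Wfdc17 had 1364 and 461 UMIs, at 3712 and 822 CPM. Its log2 ratio was 2.18 (2.02 to 2.33), and 1.87 without the Fn1-rich cells. The remaining 6 of the 12 highest genes had lower ratios without the Fn1-rich cells. S100a4 had a ratio of 3.27 (2.73 to 3.86) in all macrophages and 0.36 without them. Its neighbour on chromosome 3, S100a6, had 2.32 and −0.79, the interferon-inducible Ifitm6 2.09 and −0.64, and Ccl6 2.06 and 0.06. The guanine deaminase Gda had 2.20 and 0.72. The integrin subunit Itgam had 2.48 and stayed past 2-fold without them, at 1.07 with 25 and 23 UMIs.

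Among the 12 lowest genes, Ccl8 depended on the shallow cells labelled Con. It had 0 UMIs labelled SMA and 79 labelled Con at 141 CPM, a log2 ratio of −4.11 or below with the floor of 3 counts. The 79 UMIs were in 9 cells of 852 to 2692 UMIs, all of them among the 29 whose barcode is not listed for SMA, so that with the 48 others both libraries had none. Ccl8 had UMIs in 4 of 30 monocytes labelled Con and in 0 microglia of either library. Ccl8 lies at chr11:82115185-82116799 beside Ccl2, Ccl7 and Ccl12, which did not share this pattern: their log2 ratios were 0.37, 0.47 and 0.54.

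Igf1, a growth factor of tissue macrophages (chr10:87858265-87937042), was lower under every alternative that was run. It had 6 UMIs in 5 cells labelled SMA and 44 in 17 labelled Con, at 16.3 and 78.4 CPM. The log2 ratio was −2.26 (−3.79 to −1.03), or −1.87 with the 48 cells labelled Con and −2.05 among deep cells. In microglia the ratio was 0.17, at 3.89 and 3.44 CPM. Catalase (Cat) was at 19.1 and 90.9 CPM, −2.25 (−3.64 to −1.11), and the interferon-inducible Ifi27l2a at 267 and 697 CPM, −1.39 (−1.72 to −1.06). With the 48 cells labelled Con, Ifi27l2a was within 2-fold at −0.97. Tnfsf9, a ligand of the TNF family, was at 43.5 and 119 CPM, −1.46. Its ratio was −4.55 without the Fn1-rich cells, where 1 and 45 UMIs remained, and −2.43 with 4 or more markers. Another 6, Rnf10, Gm26532, Pmf1, Rfc2, Ewsr1 and the replication gene Mcm3, had 42 to 103 UMIs labelled Con and ratios of −1.86 to −1.32. Without the Fn1-rich cells Rfc2 (−0.91) and Mcm3 (−0.82) were within 2-fold.

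**Figure D4:**
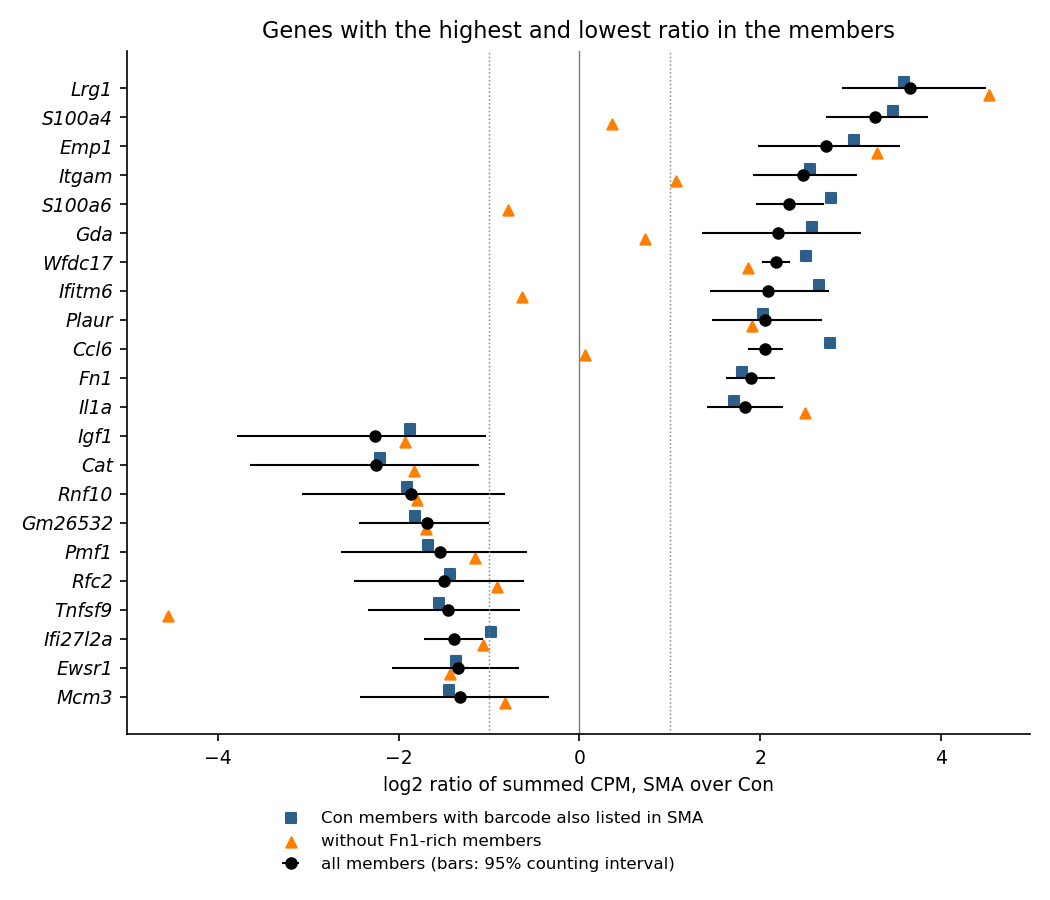
Log2 ratio of summed CPM, SMA over Con, for the genes with the highest and lowest ratio (Ccl8, at 0 in SMA, and 1 other gene are left out), with 95% counting intervals for all macrophages (circles), the 48 Con cells with a shared barcode (squares) and macrophages without the Fn1-rich cells (triangles, none for Fn1). S100a6 and Ifitm6 cross 0 without the Fn1-rich cells, to −0.79 and −0.64.

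Genes of 22 lists were read next, grouped by role, of which 170 distinct genes other than haemoglobins had at least 50 UMIs. Of these, 19 were 2-fold or more higher in the library labelled SMA (11.2%) and 13 lower (7.65%), against 3.85% and 4.44% of all 2207 genes, with a median log2 ratio of 0.03. The lists had been written with earlier results of these data known, so these shares are a description. Leaving out Ccl8, 31 of these genes had UMIs in both libraries. With the 48 cells labelled Con, 5 of the 31 were within 2-fold, Ltc4s, Slc48a1, Creg1, Bst2 and Ifi27l2a. Without the Fn1-rich cells 14 were, among them Stab1 (−0.88), Ltc4s (0.90), Msr1 (0.89), Lrp1 (0.90), Itgb2 (0.87), Bst2 (−0.95), Ube2c (−0.88) and Mcm3 (−0.82). Of the list sums, haemoglobin was past 2-fold, the p53 targets lay at that limit, and the other 20 were within it.

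Border-macrophage genes outside the rule summed to 12922 and 9959 CPM, a log2 ratio of 0.38 (0.32 to 0.43), with a median of 0.01 over 24 genes. Wfdc17 was 3712 and 822 CPM of these sums. Of the 24, Wfdc17 and the leukotriene C4 synthase Ltc4s (1.02) were 2-fold higher and the scavenger receptor Stab1 (−1.07) was 2-fold lower. Microglial genes outside the rule were at 7039 and 6086 CPM, 0.21 (0.14 to 0.28). The list of monocyte genes was at 0.69 (0.63 to 0.76), with S100a4, S100a6 and Ifitm6 2-fold higher out of 6, and at −0.03 without the Fn1-rich cells. The myeloid transcription factors were at 0.26 (0.16 to 0.36), with 2 of 11 genes past 2-fold, among them Mef2a (131 and 57.0 CPM, 1.20), while Spi1 (378 and 378 CPM) and Maf (495 and 517) were level.

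Receptors for uptake moved in both directions. Scavenger and lectin receptors summed to 4071 and 4467 CPM, −0.13 (−0.23 to −0.04), with a median of 0.09 over 16 genes. Msr1, the class A scavenger receptor, was at 166 and 76.7 CPM (1.11) and the endocytic receptor Lrp1 at 128 and 62.4 (1.04). Stab1, which clears modified lipoproteins and matrix fragments, was at 286 and 599 CPM, −1.07 (−1.40 to −0.75), found in 34 and 53 cells, and −1.17 with the 48 cells labelled Con. Dab2, an adaptor of endocytosis, was at 713 and 988 CPM, −0.47 (−0.69 to −0.26). Fc receptors and their signalling chains were level at 7099 and 7014 CPM, 0.02 (−0.05 to 0.09), and none of 7 genes was past 2-fold.

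The efferocytosis list, on the removal of dying cells, was at 1842 and 1162 CPM, 0.66 (0.51 to 0.82), and at 0.17 without the Fn1-rich cells. Its 4 genes past 2-fold out of 7 were the receptor kinase Mertk (84.3 and 33.9 CPM, 1.32), the annexin Anxa1 (1.61), Itgam and its partner Itgb2 (1.45). Anxa1 turned to −1.06 without the Fn1-rich cells, and Mertk stayed at 1.32. Complement genes were at 12922 and 8897 CPM, 0.54 (0.48 to 0.60), and 0.62 without the Fn1-rich cells. C1qa was at 4631 and 3203 CPM, 0.53 (0.44 to 0.63), C1qb at 3132 and 2082, 0.59, and C1qc at 2917 and 2148, 0.44, each under 2-fold. In microglia the complement list was at 0.13.

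Chemokines and cytokines had the largest sum of any list in the SMA cells, 35965 CPM, and 26950 CPM in the Con cells, against 12075 and 10321 in microglia. Their ratio was 0.42 (0.38 to 0.45), with a median of 0.44 over 14 genes. The neutrophil chemokine Cxcl2 was at 12373 and 9255 CPM, 0.42, and 1388 and 993 CPM in microglia. Ccl2, which draws monocytes through Ccr2, was at 5665 and 4390 CPM, 0.37, and Ccl7, its close relative, at 3478 and 2517, 0.47. Cxcl1 was at 2816 and 1681 CPM, 0.74, and Il1b at 680 and 380, 0.84. Ccl3, Ccl4 and Tnf were level at −0.09, −0.07 and −0.07. Receptors for chemokines and cytokines stood at 1532 and 1520 CPM, 0.01 (−0.15 to 0.17). Immediate early and heat shock genes, which tissue dissociation is known to induce, were at −0.06 (−0.10 to −0.02), with 1 of 18 past 2-fold, the phosphatase Dusp1 (961 and 1945 CPM, −1.02).

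Of 10 iron and haem genes with at least 50 UMIs, 3 were 2-fold or more lower and none was 2-fold higher. The list sum was within 2-fold, at 23450 and 31415 CPM, −0.42 (−0.46 to −0.38), and −0.15 with the 48 cells labelled Con. Haem oxygenase 1 (Hmox1), which breaks down haem, was at 386 and 1089 CPM, −1.50, found in 34 and 54 cells, and −1.40 with the 48 cells. The iron exporter Slc40a1 was at 114 and 253 CPM, −1.15, and −1.19 with the 48 cells, and the haem transporter Slc48a1 at −1.02 and −0.55. The biliverdin reductase Blvrb was at 362 and 677 CPM, −0.90. Transferrin (Trf) went the other way, at 2705 and 1460 CPM, 0.89. Hmox1 was at 261 and 283 CPM and Slc40a1 at 60.6 and 62.9 CPM in microglia. Haemoglobin UMIs were lower in the library labelled SMA too, at −1.80 (−1.83 to −1.76). Without the 9 cells of 5% or more haemoglobin the iron and haem list was at −0.57. A relation between haemoglobin and these genes within cells was not tested.

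Lysosomal genes were at 12852 and 15772 CPM, −0.30 (−0.35 to −0.24), and 1 of 19, Creg1 (−1.14), was past 2-fold. Cathepsin B (Ctsb) was at 1916 and 2797 CPM, −0.55, and cathepsin L (Ctsl) at −0.08, or 0.64 with the 48 cells labelled Con. Lipid genes were at 0.16 (0.11 to 0.20) with a median of −0.25 over 7 genes, and Apoe, the main lipid carrier, was at 13959 and 12037 CPM, 0.21. MHC class I genes were at −0.15 (−0.27 to −0.03), or 0.07 with the 48 cells, with H2-K1 at 384 and 667 CPM, −0.80, and H2-D1 at 1450 and 1456. The 8 MHC class II genes summed to 101 and 176 UMIs, −0.19 (−0.56 to 0.17), or 0.52 with the 48 cells labelled Con and 0.55 with 4 or more markers. Cd74, with 92 and 120 UMIs, was the 1 gene of the list that reached the minimum of 50.

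Growth factors and matrix genes summed to 3690 and 2485 CPM, 0.57 (0.46 to 0.68), yet the median of 8 genes was −0.52, and the sum was at −0.37 after thinning to 2000 UMIs. The sum rested on Fn1 and Spp1, of which Spp1 (947 and 191 CPM) had 342 of its 348 UMIs labelled SMA in the 4 cells at the microglial edge. Besides Igf1, the transforming growth factor Tgfb1 (158 and 242 CPM, −0.62) and the insulin-like growth factor binding protein Igfbp4 (561 and 850 CPM, −0.60) were lower, each under 2-fold. Interferon-response genes were at 0.32 (0.21 to 0.42) with a median of −0.71 over 5 genes, and at −0.52 with each cell weighted equally: Ifitm2 was at 2163 and 791 CPM, 1.45, and Bst2 at 84.4 and 200 CPM, −1.24, beside Ifi27l2a.

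Cell-cycle genes were at 558 and 984 CPM, −0.82 (−1.06 to −0.58), and −0.46 without the Fn1-rich cells, with Cdk1 (−1.17), Ube2c (−1.23) and Mcm3 past 2-fold out of 6. In microglia the same list was at 943 and 629 CPM, 0.59. The p53 targets were at 1426 and 715 CPM, 1.00 (0.81 to 1.19), and 1.05 without the Fn1-rich cells. Cdkn1a, the cyclin-kinase inhibitor p21 (chr17:29090976-29100727), had 273 UMIs in 33 of 42 cells labelled SMA and 131 in 40 of 77 labelled Con, at 743 and 233 CPM. Its log2 ratio was 1.67, or 1.60 with the 48 cells labelled Con. Bax, an effector of apoptosis, was at 326 and 225 CPM, 0.54, and Plk2 at 188 and 164, 0.20. Microglia had the p53 list at 0.43, and Cdkn1a at 422 and 281 CPM. The SMN complex list had 60 and 116 UMIs, −0.34 (−0.82 to 0.12).

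**Figure D5:**
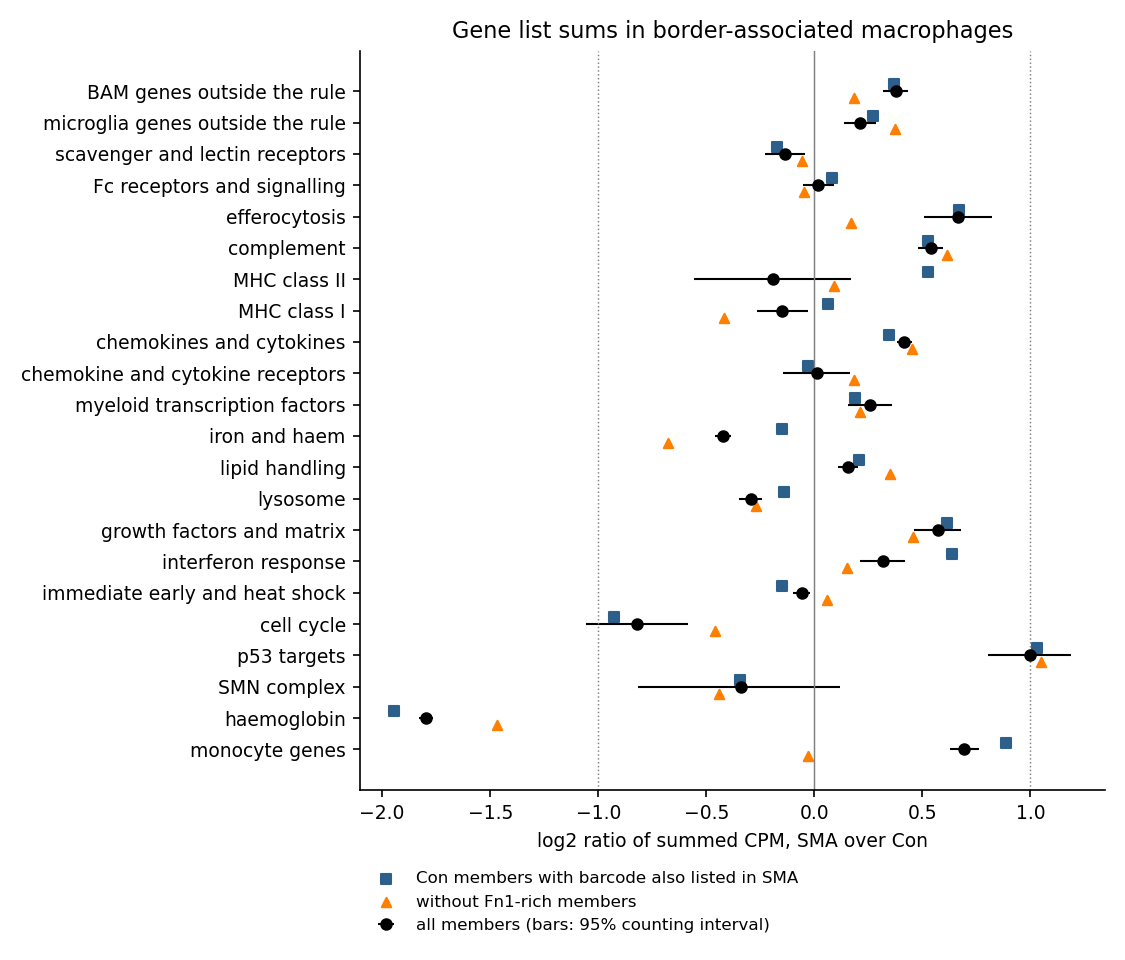
Log2 ratio of the summed CPM of each gene list, SMA over Con, with 95% counting intervals for all macrophages (circles), for the 48 Con cells with a shared barcode (squares) and without the Fn1-rich cells (triangles). The haemoglobin list is farthest left at −1.80 and the p53 targets farthest right at 1.00, while monocyte genes move from 0.69 to −0.03 without the Fn1-rich cells.

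Genes of the sex chromosomes were not alike in the pools. A UMI of Xist, the RNA of the inactive X chromosome, was found in 0 of 42 macrophages labelled SMA and in 29 of 77 labelled Con, and in 0.346% and 60.4% of OPC. Ddx3y of the Y chromosome was found in 17 and 14 macrophages, so both libraries held male cells, while Xist cells were a large part of the library labelled Con alone. In the comparisons between the libraries, the sex of the pooled animals cannot be told apart from the genotype.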

How the data were processed

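Border-associated macrophages were taken from 1 library labelled SMA and 1 labelled Con, grouped by the sample labels. The deposited files hold raw UMI counts per gene and barcode. Cell Ranger was run by the authors on 10x Genomics 3′ libraries, in version 4.0.0 per the file headers, which differs from the study's methods. The submitters' processing notes name mm10 and Seurat 3.2.2. The counts carry no normalization.

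Barcodes with 200 to 4000 genes and under 10% mitochondrial UMIs were kept, which are the study's own limits, and SMA barcodes also listed in Con were left out. This left 6787 of 26921 and 10256 of 25419 barcodes. No doublet caller was run. The upper gene limit and the limits on microglial and other markers were the only bounds on doublets. None was set on erythroid, platelet, neuronal or oligodendrocyte genes. Microglia had 3 or more of the 5 microglial genes and at most 2 of the 7 markers. Monocytes had 3 or more of 8 monocyte genes, and OPC 3 or more of 5 OPC genes.

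UMIs were summed over the macrophages of each library (367501 and 561001 in all) and scaled to a total of 1000000 (CPM). Ratios have exact conditional binomial intervals, shares exact Clopper-Pearson intervals and ratios of shares log-scale intervals, at the 95% level. A count of 0 was given a floor of 3 counts over the group. Genes with at least 50 UMIs in both libraries together were compared, and 2-fold or more was counted as past the limit. No p-value was computed.

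The genes named by ratio were the 12 highest and 12 lowest with UMIs in at least 5 cells of the higher library and at most 1 in 3 of those UMIs in 1 cell, without the rule's genes, sex-chromosome, haemoglobin, mitochondrial and ribosomal-protein genes. Against microglia, the 12 highest and 12 lowest by the smaller ratio of the libraries were named. Of the genes these rules and lists give, 4 are not reported here. The cells, markers and gene lists were chosen with earlier results of these data known. The lists were border-macrophage, microglial, monocyte, scavenger and lectin receptor, Fc receptor, efferocytosis, complement, MHC class I and II, chemokine, receptor, transcription factor, iron and haem, lipid, lysosome, growth factor, interferon, immediate early, cell-cycle, p53, SMN complex and haemoglobin genes, and the platelet list was written after the data were seen. Genes were also read one by one from these lists where their values bore on a group. Alternatives were other limits on markers, mitochondrial share and genes, thinning, deep cells, shared SMA barcodes kept, ribosomal share, equal weight per cell, centring and other UMI minimums. Those on the Con barcodes, haemoglobin, Fn1-rich cells and the platelet-gene cell were chosen after seeing the data. Scripts were tested on simulated data and run in Python 3.11.15 with numpy 2.4.6, scipy 1.17.1 and pandas 2.3.3. Gene positions were looked up by identifier in GENCODE M21 (GRCm38).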

Additional observations from a re-analysis of the deposited data

Results flagged for a closer look

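Ifitm6, an interferon-inducible membrane protein also found in monocytes, went in opposite directions in the macrophages and in microglia. In the macrophages its log2 ratio, SMA over Con, was 2.09 (1.45 to 2.77), from 78 and 28 UMIs at 212 and 49.9 CPM. In microglia it was −1.26, at 3.01 and 7.19 CPM. The difference between these ratios was not tested. Without the Fn1-rich cells, 6 and 18 UMIs were left in the macrophages and the ratio was −0.64.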

How the results depend on the processing

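No paired analysis was possible because each group had 1 library. The share of kept cells stayed below 0 on the log2 scale in every alternative, from −0.48 to −0.12, and the share of macrophages and microglia lay between −1.04 and −0.53. The genes higher in SMA numbered 9 after thinning to 2000 UMIs, 260 and 46 at minimums of 20 and 100 UMIs, and 47 without the Fn1-rich cells. The lower genes numbered 6, 377 and 38 under the same thinning and minimums, 55 with 4 or more markers and 50 without the platelet-gene cell. After thinning, 95 genes were higher and 291 lower than in microglia in both libraries. Without the cells rich in Spp1, the genes lower in Lyve1 cells of both libraries numbered 10 rather than 16, and the higher ones 87 rather than 78. No list was 2-fold higher in all macrophages, and 1, the p53 targets, was with 4 or more markers (1.11), a mitochondrial limit of 20%, up to 6000 genes, thinning, deep cells, the Con barcodes also listed in SMA and without the Fn1-rich cells. Haemoglobin was the 1 list 2-fold lower. Cell-cycle genes joined it among deep cells (2 lists, −1.03), and MHC class II (−2.19) and iron and haem genes (−1.05) with each cell weighted equally (3 lists). Among genes named by ratio, 3 values turned: Pacsin1 against microglia in SMA to 0.43 after thinning, and S100a6 to −0.79 and Ifitm6 to −0.64 without the Fn1-rich cells. Pacsin1 had 1 UMI in the macrophages labelled SMA. After thinning its value rests on that UMI or the floor of 3 counts, so no change of direction is read from it. Of 22 list sums, 9 changed sign under at least 1 alternative, 3 of them within 0.1 of 0 in all macrophages. The other 6 were MHC class II, up to 0.55 among deep cells, MHC class I (0.07 among deep cells), microglial genes (−0.07) and growth factors (−0.37) after thinning, and interferon-response (−0.52) and monocyte genes (−0.18) with each cell weighted equally. Of 23 genes named by ratio, 23 stayed within their counting intervals without the haemoglobin-rich cells and 12 without the Fn1-rich cells, where Fn1, on which these cells were chosen, tells nothing. With 42 and 77 cells, genes under 50 UMIs were left out of the counts between the libraries, those named with fewer UMIs have wide counting error, and 1 cell can set a ratio.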
